A study of Rattus norvegicus with 18 samples.

Results

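The CCN genes encode a family of secreted proteins that sit in the extracellular matrix and act on neighbouring cells, called matricellular because they signal rather than build the matrix. The family was taken as the 5 rows of the RNA table that carry its older symbols, chosen by name: CYR61, CTGF, NOV, WISP1 and WISP2, now called Ccn1 to Ccn5. They are 5 of 28909 rows, and all 5 passed the filter on low values that left 15204 genes for testing. A sixth family gene, Ccn6 (WISP3), lies outside the selection and was listed at 0 in every library.

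The cells were wild-type neonatal rat ventricular cardiomyocytes from 1-day-old SD rats. A 90 min preplating step took out cells that attach sooner. The remaining cells were kept on collagen for 24 h and then in medium with 0.25% serum. The plating medium held 10% serum for both groups. One group of 3 RNA libraries received 25 µM blebbistatin for 0.5 h, and the other group of 3 received DMSO, the solvent, for the same time. Blebbistatin blocks the ATPase of myosin II motors and so lowers contractile tension. The dose is that of the treatment protocol in the labels. The series' design text gives it too but names 0.25 µM where it speaks of the RNA libraries, so the dose is uncertain. The 12 ChIP and input samples of the series are not analysed here. Whether replicates were separate preparations of cells is not in the labels, so the replicate spread behind each p-value may be technical.

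CCN proteins have up to 4 modules in a row: an IGF-binding-like module, a von Willebrand factor type C module, a thrombospondin type 1 module and a C-terminal cystine knot. They bind integrins, heparan sulfate proteoglycans and growth factors. Ccn1 and Ccn2 are classic targets of the YAP and TAZ coactivators, which act through TEAD factors and respond to actin tension and cell shape. Ccn1 is also an immediate early gene under serum response factor, and Ccn2 responds strongly to TGF-beta and accompanies cardiac fibrosis. Ccn3 often opposes Ccn2 in matrix production, Ccn4 was found as a Wnt-induced gene, and Ccn5 lacks the C-terminal cystine knot.

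The start regions of Ccn1 and Ccn2 are shown because both genes are textbook YAP and TEAD targets. RefSeq's promoter table for rat build GRCr8 gave 300 bases for each, 250 before the start and 50 after it. The Ccn1 window is chr2:237225640-237225939 and the Ccn2 window is chr1:22624565-22624864, both on the minus strand. Capitals mark matches to the motifs searched: GGAATG for TEAD, CAGACA for SMAD, TATAAA for the TATA box, TGANTCA for AP-1, and the CArG box and the CRE by name.
Ccn1: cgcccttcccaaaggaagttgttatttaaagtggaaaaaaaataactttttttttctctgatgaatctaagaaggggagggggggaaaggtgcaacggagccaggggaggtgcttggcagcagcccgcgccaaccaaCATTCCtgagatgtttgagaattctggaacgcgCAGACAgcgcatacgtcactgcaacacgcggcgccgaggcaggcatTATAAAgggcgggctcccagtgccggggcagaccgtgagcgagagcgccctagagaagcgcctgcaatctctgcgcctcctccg
Ccn2: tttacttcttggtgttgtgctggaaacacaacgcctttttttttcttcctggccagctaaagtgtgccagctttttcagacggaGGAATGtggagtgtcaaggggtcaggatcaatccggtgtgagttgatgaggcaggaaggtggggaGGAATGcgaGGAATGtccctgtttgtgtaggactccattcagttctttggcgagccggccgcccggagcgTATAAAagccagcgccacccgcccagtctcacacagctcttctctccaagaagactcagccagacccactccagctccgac

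Both strands were searched, and the marked matches do not overlap one another. The Ccn2 window held 3 TEAD matches, which begin 166, 101 and 92 bases before the start. The Ccn1 window held 1, on the opposite strand, between 113 and 108 bases before the start. At least 1 TEAD match occurred in 14.2% of 33465 rat promoter windows of this length, and 3 or more occurred in 0.0956%. Among 20 other listed YAP and TEAD targets, 13 had a window in the table and 3 of these held a TEAD match. Each CCN window had 1 TATA match, found in 14.2% of windows, and Ccn1 also had 1 SMAD match, found in 21.1%. Neither window matched AP-1 (7.33% of windows), the CArG box (1.64%) or the CRE (1.83%). A match is a description of these letters and not a measured binding site. Windows of Ccn3, Ccn4 and Ccn5 are not analysed here.

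Levels are CPM, in which all libraries have an equal total over genes, so they set libraries side by side but not genes of different length. Fold changes come from limma, a linear model fitted across all tested genes, on log2(CPM divided by a scaling factor + 0.1), which understates changes of low genes. A gene was called at a Benjamini-Hochberg adjusted p under 0.05 over all 15204 genes. Limma called 3 genes by this rule, 0.0197% of those tested (1 higher, 0.00658%, and 2 lower, 0.0132%), and 0 of 5 CCN genes. At an unadjusted p under 0.05 it listed 231 genes (1.52%). Of these, 118 were lower with blebbistatin (0.776%) and 113 higher (0.743%), and 1 of 5 CCN genes was among the lower ones.

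That gene was Ccn1, an early response gene whose product supports cell adhesion and blood vessel growth. It stood at 376, 523 and 522 CPM in blebbistatin replicates 1 to 3, against 1185, 1025 and 889 CPM in DMSO replicates 1 to 3. Every blebbistatin library lay below every DMSO library, and the gap between the groups was wider than the range within either. Of the 5 CCN genes, 1 had groups without overlap, on the lower side, against 2.89% of all tested genes lower, 3.24% higher and 6.13% in either direction. The scaled mean was 468 ± 89.6 CPM with blebbistatin and 1053 ± 207 CPM with DMSO (SD, n = 3 each), a ratio of 0.444. The log2 fold change was -1.17 ± 0.21 (SE), with a 95% interval from -1.65 to -0.69. Its unadjusted limma p of 0.000604 ranked 12 of 15204, and its limma adjusted p was 0.765. The difference therefore did not pass the correction, although it was seen in 3 of 3 treated libraries. With gene-by-gene library weights, which gave DMSO replicate 1 the lowest weight, limma called Ccn1 (log2 fold change -1.08, adjusted p = 0.0427; 0.0427 to 1.0 over 16 alternatives).

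**Figure D1:**
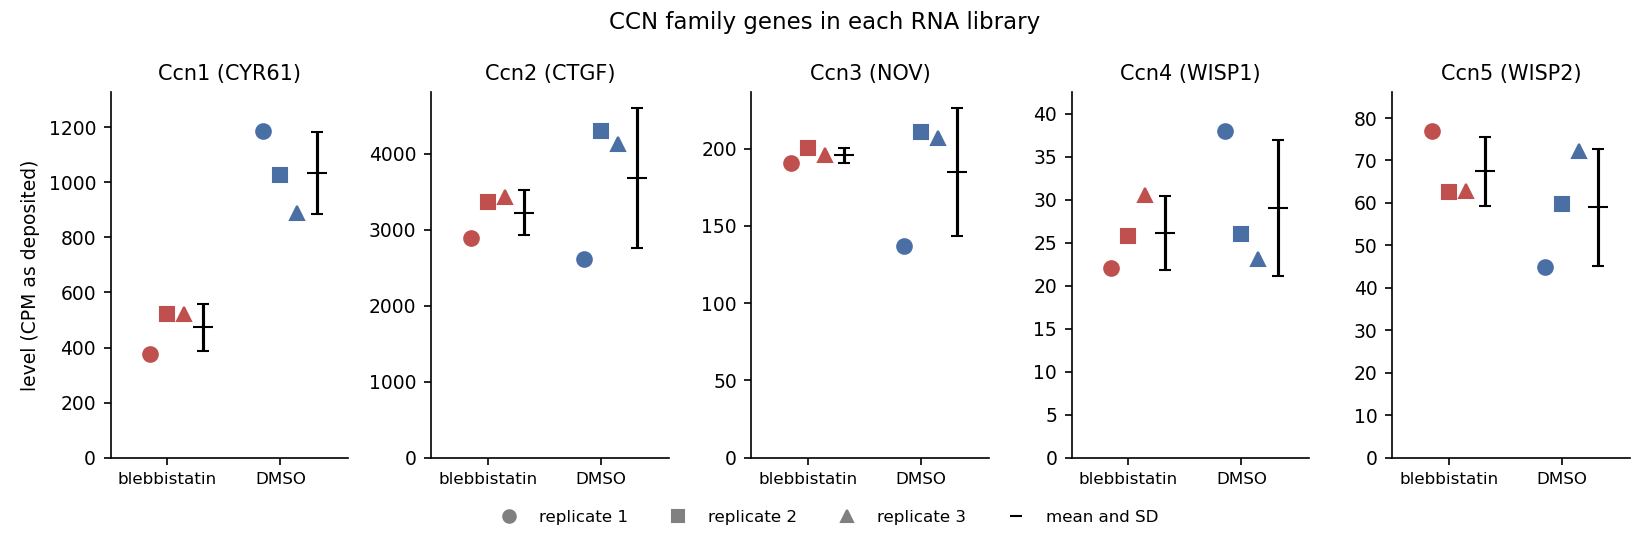
Level of each CCN gene in CPM as deposited (vertical axes start at 0) in 3 blebbistatin and 3 DMSO libraries; points are libraries and bars are the mean and SD of the plotted values. Ccn1 lay between 376 and 523 CPM with blebbistatin and between 889 and 1185 CPM with DMSO, while the groups of the other 4 genes overlapped.

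Ccn2, a driver of fibroblast matrix production, stood at 2886, 3360.3 and 3425 CPM with blebbistatin, against 2616, 4298 and 4132 CPM with DMSO. The groups overlapped only through DMSO replicate 1, which was the lowest of all 6 libraries, while the other 2 DMSO libraries were the highest. The scaled mean was 3183 ± 329.7 CPM with blebbistatin and 3702 ± 771 CPM with DMSO. The log2 fold change was -0.20 ± 0.19, with an interval from -0.65 to 0.25 (limma adjusted p = 0.991). A p that misses the threshold does not show that Ccn2 stayed level.

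Ccn3, which binds Notch1 and connexin 43 and is often growth-restraining, was nearly even across the treated libraries. Its level was 191, 200.2 and 196 CPM with blebbistatin, against 137, 211 and 207 CPM with DMSO. The treated libraries lay inside the DMSO range, between replicate 1 and the other 2. Its log2 fold change was 0.069 ± 0.16, with an interval from -0.31 to 0.45. The coefficient of variation was 3.97% with blebbistatin and 18.0% with DMSO.

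Ccn4, the Wnt-induced member, had 22.02, 25.7 and 30.6 CPM with blebbistatin, against 38.0, 26.0 and 23.1 CPM with DMSO. Here DMSO replicate 1 was the highest library, and the other 2 DMSO values lay within the treated range. The log2 fold change was -0.17 ± 0.25, with the widest interval of the family, from -0.74 to 0.40.

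Ccn5, the member without the cystine knot and in other settings a counterpart to Ccn2, had 76.9, 62.5 and 62.8 CPM with blebbistatin. The DMSO libraries had 44.9, 59.7 and 72.3 CPM. The groups overlapped, with DMSO replicate 1 lowest and blebbistatin replicate 1 highest. The log2 fold change was 0.17 ± 0.17, with an interval from -0.22 to 0.57. For Ccn2 to Ccn5 the limma adjusted p was 0.991 in each case, and none of the 4 was called.

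Counting error was below the spread between libraries for each CCN gene, though not always by much. Values rise in fixed steps, and how many steps make 1 read is uncertain. Taking 4 steps as 1 read, the more cautious reading, the counting error was at most 0.5% for Ccn2, 1.3% for Ccn1, 2.2% for Ccn3, 3.8% for Ccn5 and 5.4% for Ccn4. The coefficient of variation of Ccn1 was 19.1% with blebbistatin and 19.6% with DMSO, well above its counting error. That of Ccn3 with blebbistatin was 3.97%, nearer to its counting error.

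Over all genes, DMSO replicate 1 lay far from the rest. On the first principal component, which carried 42% of the variance, it lay at 77.4, while the other 5 libraries lay between -34.6 and 3.04. Its log2 distance from the mean of the other 2 DMSO libraries was 0.445 for Ccn1 and 0.762 for Ccn4, in the upward direction. It was -0.555 for Ccn2, -0.476 for Ccn3 and -0.415 for Ccn5. The median absolute distance over all tested genes was 0.428, so the CCN genes deviated in this library about as much as other genes did.

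The fold change of each CCN gene is therefore given without that library too, and other results only where stated. Ccn1 then had a log2 fold change of -1.02 ± 0.18, with an interval from -1.43 to -0.62 (limma adjusted p = 0.288). Ccn2 had -0.39 ± 0.12, with an interval from -0.67 to -0.099 and an unadjusted limma p of 0.0146, but an adjusted p of 0.9999. Ccn3 was at -0.09 ± 0.10, Ccn4 at 0.084 ± 0.17 and Ccn5 at 0.036 ± 0.14, so Ccn3 and Ccn4 took the opposite sign. Without DMSO replicate 1, all treated libraries lay below the remaining 2 DMSO libraries for Ccn1, Ccn2 and Ccn3. That is 3 of 5 members, against 6.04% of tested genes lower, 6.07% higher and 12.1% in either direction. The members were chosen with earlier results of these data known. Counts of members beside such shares are therefore a description and not independent support. Ccn1 and Ccn2 were also 2 of the 129 genes (0.848%) that were lower at an unadjusted p under 0.05. Limma then called 6 genes over the whole table (0.0395%), again with no CCN gene among them.

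**Figure D2:**
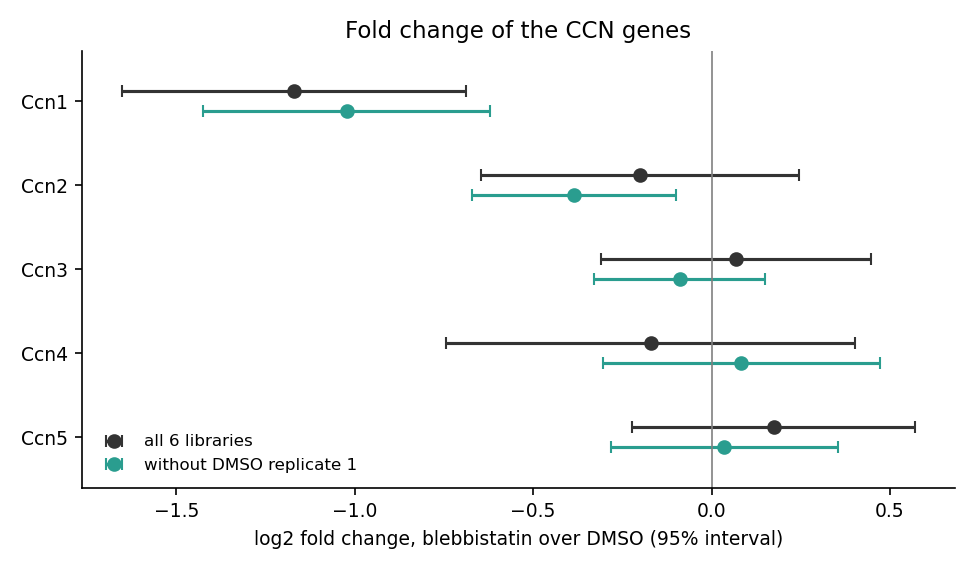
Log2 fold change of each CCN gene, blebbistatin over DMSO, with its 95% limma interval, from all 6 libraries (dark) and without DMSO replicate 1 (green). Ccn1 lay at -1.17 and -1.02, and its interval excluded 0 in both; that of Ccn2 excluded 0 only without the library.

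Among all tested genes, 103 had a lower log2 fold change than Ccn1, and 27 of these had a mean log2 level of at least 1. Ccn2 to Ccn5 lay in the body of the distribution. Over all genes 49.3% had a log2 fold change below 0, against 3 of the 5 CCN genes, with a CCN median of -0.17.

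**Figure D3:**
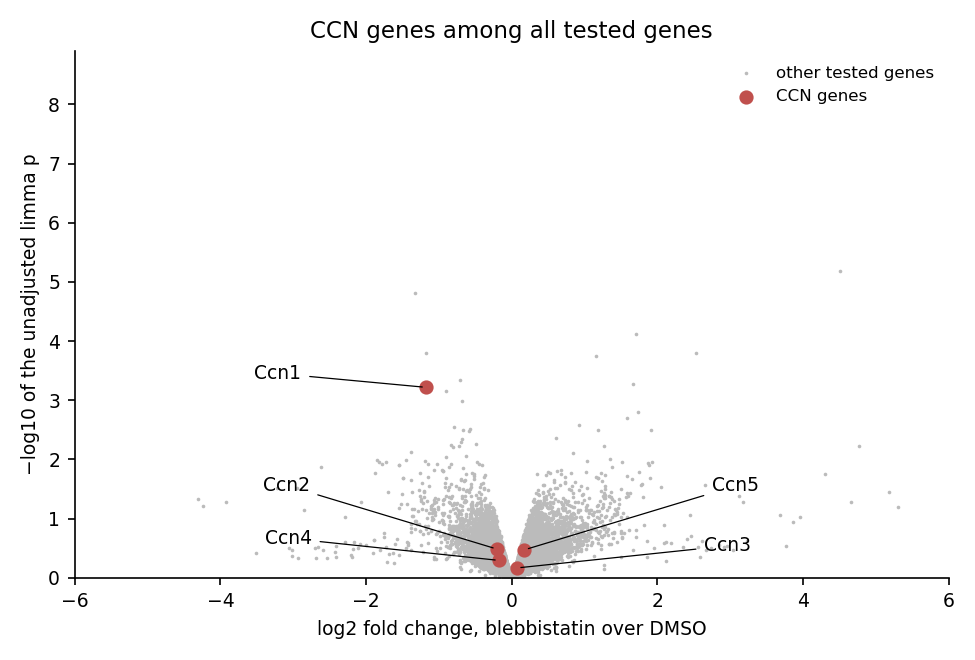
Log2 fold change, blebbistatin over DMSO, against −log10 of the unadjusted limma p for 15204 tested genes, with the CCN genes in red; 4 genes lie beyond the horizontal range. Ccn1 lies on the lower side (-1.17) and ranks 12 by p, though 103 genes have a lower log2 fold change. The other 4 CCN genes lie among the bulk of genes.

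Ratios between CCN genes within a library need no scaling. The CPM ratio of Ccn1 to Ccn2 was 0.13, 0.156 and 0.152 with blebbistatin, against 0.453, 0.239 and 0.215 with DMSO. The treated ratios were lower in 3 of 3 libraries. The mean log2 ratio differed by -0.971, being -2.78 ± 0.14 with blebbistatin and -1.81 ± 0.58 with DMSO (SD, n = 3 each; exact two-sided permutation p = 0.1). That is the smallest p that 3 libraries against 3 can give, and adjusted over the 10 member pairs it was 0.167. Without DMSO replicate 1 the log2 difference was -0.637. The ratios of Ccn1 to Ccn3, Ccn4 and Ccn5 had the same exact permutation p of 0.1 with all 6 libraries, and log2 differences of -1.24, -1.0 and -1.35. These 4 ratios share Ccn1, and its ratio to 85.6% of 14510 other genes was separated in the same way.

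The ratio of Ccn2 to Ccn3 was the steadiest among the DMSO libraries. On the log2 scale it was 3.92, 4.07 and 4.13 with blebbistatin, against 4.26, 4.35 and 4.32 with DMSO. Here DMSO replicate 1 lay close to its group, and the groups did not overlap. The mean log2 ratio was 4.04 ± 0.11 with blebbistatin and 4.31 ± 0.048 with DMSO, a difference of -0.269 (exact permutation p = 0.1, 0.167 adjusted over the 10 pairs). The ratio of Ccn2 to 10.7% of 14510 genes was separated on the lower side, so Ccn3 is 1 of many such partners. The pair was singled out after its values were seen. The ratio of Ccn2 to Ccn5 was lower without overlap as well (log2 difference -0.375, exact permutation p = 0.1), which makes 6 of 10 pairs separated. The ratios of Ccn3 to Ccn5 (log2 difference -0.105, exact permutation p = 0.6) and of Ccn4 to Ccn5 (-0.345, exact permutation p = 0.6) overlapped between the groups, as did those of Ccn2 to Ccn4 and Ccn3 to Ccn4.

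**Figure D4:**
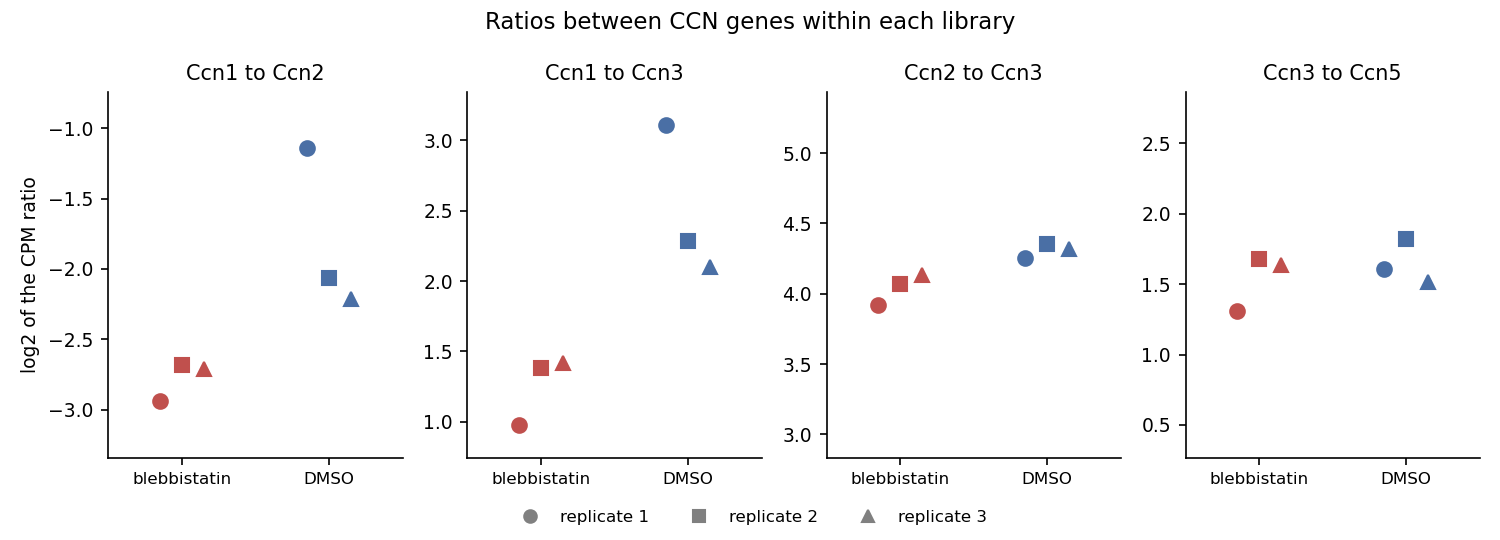
Log2 of the CPM ratio between pairs of CCN genes in each library (each vertical axis spans the same number of log2 units). The mean ratio of Ccn1 to Ccn2 was -2.78 with blebbistatin and -1.81 with DMSO; the ratio of Ccn2 to Ccn3 was separated by a smaller distance, and that of Ccn3 to Ccn5 overlapped.

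For the factors known to drive Ccn1 and Ccn2, RNA levels were measured, but not their activity. Of 19 genes of the Hippo kinase cascade with YAP and TEAD, limma called none, none had an unadjusted p under 0.05, and their median log2 fold change was -0.10, against 0.004 for all genes. Yap1, the coactivator, had a log2 fold change of -0.074 ± 0.19 and its partner Tead1 one of -0.30 ± 0.24. Vgll4, a competitor of YAP for TEAD, was at 16.7 ± 0.49 CPM with blebbistatin and 22.2 ± 5.82 CPM with DMSO (-0.38 ± 0.19). Without DMSO replicate 1 the list's median was -0.0021.

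Of 19 other YAP and TEAD targets in the test, limma called none, and 16 had a negative log2 fold change, with a median of -0.11. The lowest p in this list and in the cascade list belonged to Amotl2, which encodes an angiomotin that holds YAP in the cytoplasm. It was at 364 ± 29.5 CPM with blebbistatin and 435 ± 15.7 CPM with DMSO (-0.26 ± 0.12), without overlap. Dock5 and Rbms3, the next in order, had -0.40 ± 0.28 and -0.29 ± 0.25, and their groups overlapped. Without DMSO replicate 1 the list's median was -0.035.

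Serum response factor and the actin genes it controls together with MRTF, 18 genes, had a median of -0.0003, with no gene called. Srf itself had a log2 fold change of -0.18 ± 0.13, and Cnn2 and Cnn1, calponin genes that bind actin, had -0.32 ± 0.21 and 0.35 ± 0.24. Among 15 immediate early genes linked to serum response factor, limma also called none. However, 10 of them had an unadjusted p under 0.05, all lower, against 0.776% of all tested genes, and 10 were separated on the lower side, against 2.89%. Their median was -0.58, and Fos, Egr2 and Klf6, at -1.33 ± 0.14, -1.17 ± 0.17 and -1.12 ± 0.20, stood close to Ccn1. These 3 genes, and the list itself, were chosen with earlier results of these data known. Its counts beside those shares are therefore a description and not independent support.

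Among 15 genes of TGF-beta signalling, the main known inducer of Ccn2, limma called none and 13 had a negative log2 fold change. Smad7, the inhibitory SMAD, was at 76.3 ± 7.66 CPM with blebbistatin and 61.8 ± 4.35 CPM with DMSO (0.30 ± 0.13), higher without overlap. Skil, a SMAD corepressor gene, had -0.45 ± 0.21 with overlapping groups. The list's median was -0.14, and -0.0049 without DMSO replicate 1.

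In the Wnt response list, named for the origin of Ccn4 and Ccn5, 11 genes were tested and none was called, with a median of 0.027. Tcf7 and Lef1, transcription factors of the pathway, had -0.21 ± 0.21 and 0.40 ± 0.43, and Apcdd1, a Wnt inhibitor gene, -0.19 ± 0.20. Axin2, the usual reporter of the pathway, was at 0.777 ± 0.19 CPM with blebbistatin and 0.674 ± 0.16 CPM with DMSO.

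The receptors of CCN proteins were expressed in both groups. Of 13 tested, limma called none, and no list member was separated between the groups. Itgb1, the common integrin beta subunit, was at 3293 ± 225 CPM with blebbistatin and 3416 ± 156 CPM with DMSO (-0.054 ± 0.13). Itgb3, the beta subunit paired with alpha V in CCN binding, had -0.33 ± 0.20. Igf2r, which binds Ccn2, had -0.24 ± 0.18, and Lrp6, a Wnt co-receptor bound by Ccn2, -0.25 ± 0.18. Without DMSO replicate 1 the list's median was -0.023, against -0.13 with it.

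Among 11 binding partners of CCN proteins in matrix and growth factor signalling, limma called none, with a median of -0.13. Bmp4, a ligand that Ccn2 binds, was at 22.8 ± 2.18 CPM with blebbistatin and 26.0 ± 2.29 CPM with DMSO. Hspg2, the perlecan gene, and Acan, the aggrecan gene, had -0.44 ± 0.37 and -0.24 ± 0.21, and their groups overlapped. Without DMSO replicate 1 they had -0.0234 and -0.0232.

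Families that share CCN modules or the matricellular role were not called either. The IGF-binding proteins, which share the module at the start of CCN proteins, had 6 tested members and a median of 0.19, which was -0.011 without DMSO replicate 1. Igfbp2, Igfbp7 and Igfbp6 had 1.26 ± 0.58, 0.59 ± 0.45 and 0.36 ± 0.36, and Igfbp2 was low, at 0.696 ± 0.16 CPM with blebbistatin and 0.296 ± 0.3 CPM with DMSO. Of 11 other matricellular genes, 6 had a negative log2 fold change. Thbs1, encoding thrombospondin 1, was at 1681 ± 288 CPM with blebbistatin and 2187 ± 352.5 CPM with DMSO (-0.38 ± 0.19). Tnc, encoding tenascin C, had -0.23 ± 0.20, and Sparcl1 0.51 ± 0.41.

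**Figure D5:**
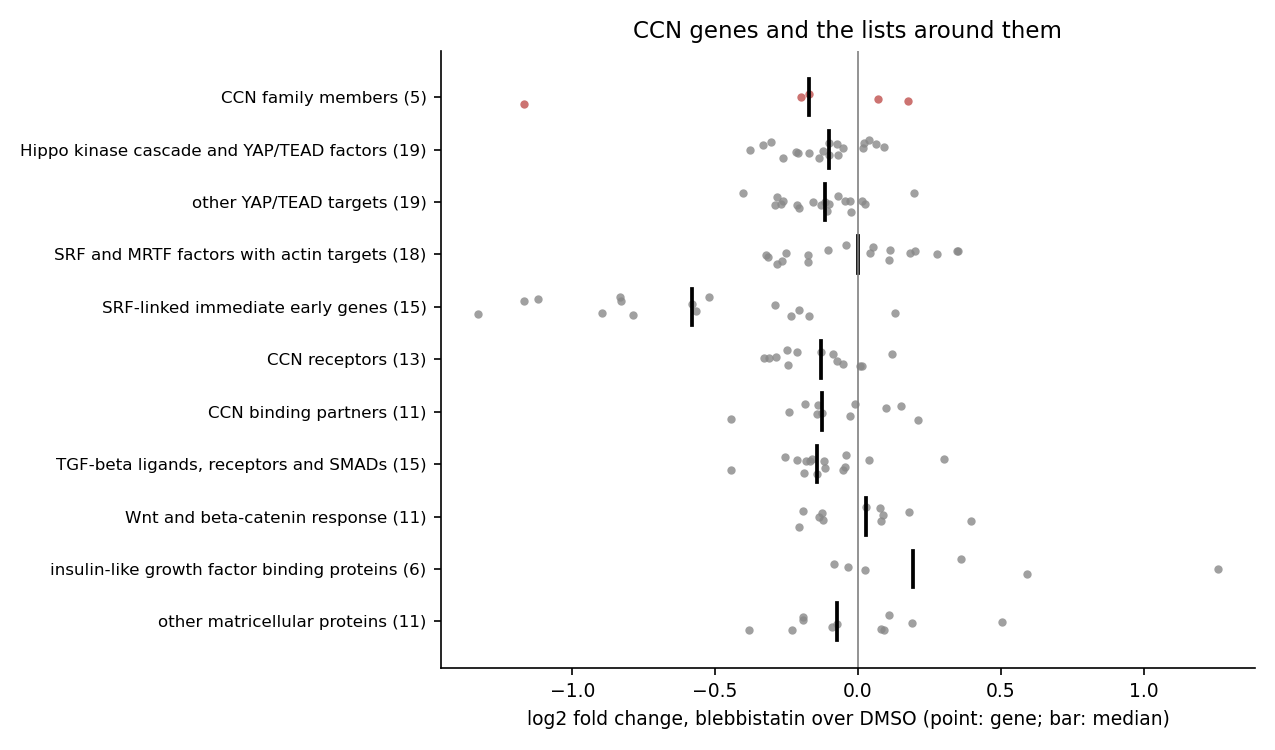
Log2 fold change, blebbistatin over DMSO, of each tested gene in the CCN family and in 10 lists around it (number tested in brackets); the bar is the list's median. The median was -0.17 for the CCN genes and -0.58 for the immediate early genes, and between -0.14 and 0.19 for the other lists.

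Over the 10 lists together, 133 genes were tested and limma called none. The 10 genes with an unadjusted p under 0.05 were all lower and all in the immediate early list. That list was chosen with earlier results of these data known. Among all tested genes, the lower and higher ones at that level were nearly equal in number.

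The genes most like each member over the 6 libraries were taken as those with the highest Pearson correlation of log2 level, among 11200 others with a symbol and a mean log2 level of at least 1. These are descriptions of 6 libraries, among them DMSO replicate 1. For Ccn1 they were Galnt6, a glycosyltransferase gene (r = 0.987), Pim1, a kinase gene (0.979), Klf6, a zinc finger factor gene (0.978), and Zfp36l1, an mRNA decay factor gene (0.974). Their log2 fold changes were -0.49 for Galnt6, -0.681 for Pim1, -1.12 for Klf6 and -0.153 for Zfp36l1. A high correlation therefore did not mean a change of like size. Pim1 was at 13.2, 14.0 and 16.4 CPM with blebbistatin, against 24.6, 23.5 and 20.1 CPM with DMSO. Klf6 was at 36.7, 38.5 and 42.2 CPM with blebbistatin, against 102.5, 81.6 and 68.0 CPM with DMSO. Like Ccn1, both were lowest in blebbistatin replicate 1 and highest in DMSO replicate 1.

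For the other members the nearest genes followed DMSO replicate 1. Those of Ccn2 were Ywhag (0.968), Smim15 (0.955), Popdc2 (0.934) and Mrpl44 (0.918). Those of Ccn3 were Drc3 (0.989), Fbln5 (0.988), Rerg (0.987) and Tmem19 (0.986), of which Fbln5 encodes a matrix protein of elastic fibres. The nearest to Ccn4 were Wnt5a (0.998), Ptpn23 (0.995), Dctn1 (0.994) and Trim62 (0.994), and Wnt5a encodes a Wnt ligand. The nearest to Ccn5 were Commd8 (0.999), Ube2l6 (0.997), Ube2q1 (0.996) and Phax (0.995). DMSO replicate 1 was the lowest library for each gene named beside Ccn2, Ccn3 and Ccn5, and the highest for each named beside Ccn4.

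Markers of the cells in culture give the context of these levels. Cardiomyocyte markers summed to between 26204 and 28057 CPM with blebbistatin and between 26284 and 31504 CPM with DMSO, over 13 genes. Tnnt2, the cardiac troponin T gene, was at 1473 ± 238 CPM with blebbistatin and 1362 ± 333 CPM with DMSO. Fibroblast markers, 11 genes, summed to between 33746 and 38225 CPM with blebbistatin and between 33697 and 39182 CPM with DMSO. Col1a1, a collagen gene and the fibroblast marker named here, had a log2 fold change of -0.049 ± 0.19. The ranges of both sums overlapped between the groups. RNA of the fibroblast marker genes was present in all libraries, and fibroblasts are a known source of CCN transcripts. Limma called none of the markers.

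Other marker sums overlapped between the groups, and several moved with DMSO replicate 1. Mural markers, 6 genes, summed to between 854 and 1022 CPM with blebbistatin and between 844 and 1699 CPM with DMSO, with replicate 1 at the top. Macrophage and leukocyte markers, 8 genes, summed to between 145 and 163 CPM with blebbistatin and between 73.3 and 162 CPM with DMSO, with replicate 1 at the bottom. Ptprc, the pan-leukocyte marker, was at 13.8 ± 0.28 CPM with blebbistatin and 12.6 ± 0.87 CPM with DMSO. Endothelial markers, 7 genes, summed to between 103 and 118 CPM with blebbistatin and between 111 and 121 CPM with DMSO, and Pecam1 is not analysed here. None of these markers was at 0 in all libraries. In bulk RNA, fewer cells of a type and less RNA per cell cannot be told apart, and the part of cell makeup in the CCN values was not tested.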

How the data were processed

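RNA of 6 libraries was analysed, 3 per group. Values in the authors' table are CPM, as every column sums to 1000000. Per the submitters' processing notes, edgeR 3.20.9, StringTie 1.3.4, HISAT2 2.1.0, MACS2 2.1.0, BWA and Trim Galore were used across the series, with build rn6. The annotation, the strand setting and the role of each tool are not given in the sources used here, so genes that overlap or resemble another are uncertain. In each library 99.1 to 99.2% of values above 0 fell within 0.02 steps of a whole number of steps, where 1 step was 0.0158 to 0.0168 CPM and a library held 59.6 to 63.3 M steps. Of the values of 1 to 60 steps, 33.4 to 36.3% were multiples of 4, so a read may count as several steps and the depth in reads is uncertain. Counting errors are given for 4 steps a read and cover counting error only.

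Values were divided by unweighted TMM factors (0.928 to 1.03; trims of 0.3 and 0.05), and 0.1 CPM was added before log2. Genes entered with at least 0.162 CPM (10 steps at the median of 61.7 M) in at least 3 libraries. Tests used limma 3.58.1 in R 4.3.3 (trend, robust, no block, two-sided). Means ± SD use scaled CPM, whereas per-library values are unscaled. Of the table's names, 17134 matched a RefSeq symbol and 1820 a synonym, in a newer assembly used for names and promoters only. The scripts were tested on simulated data.

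The members and lists were chosen with earlier results of these data known. Named genes are all members, the 3 with the lowest p in each list, 4 genes most like each member, and defining markers. Some listed genes and 1 list are not reported here. Others (Yap1, Axin2, Itgb1) were named after their values were seen. Alternatives covered scaling, filter, pseudocount, robust fitting, library weights, replicate block and leaving out each library. The 3 same-numbered pairs had correlations of -0.289, 0.0542 and -0.092 between their deviations from the group mean, so the numbers were not taken to pair the samples.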

Additional observations from a re-analysis of the deposited data

How the results depend on the processing

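No CCN gene was called in 15 of 16 alternatives. With gene-by-gene library weights 1 was called, Ccn1, with -1.08 on the log2 scale (limma adjusted p = 0.0427, within a range of 0.0427 to 1.0 over the 16). DMSO replicate 1 was weighted 0.232 there, and DMSO replicate 2 was weighted 2.89. Ccn1 and Ccn2 kept a negative sign in all 16 alternatives, and Ccn5 a positive one. With these weights Ccn3 took -0.074 and Ccn4 0.0446, the opposite sign, as they also did without DMSO replicate 1. With a library left out, values ran over -1.3 to -1 for Ccn1, -0.385 to -0.0912 for Ccn2, -0.0897 to 0.157 for Ccn3, -0.342 to 0.0836 for Ccn4 and 0.0358 to 0.31 for Ccn5. The log2 ratio of Ccn1 to Ccn2 then differed by -1.17 to -0.637. With the replicate block Ccn1 stayed at -1.17 with an unadjusted p of 0.0059 (limma adjusted p = 0.999), the ratio at -0.971, and no other CCN call differed. Over all genes the 3 calls were 13 with the library weights (5 higher, 8 lower) and 3 to 6 with a library left out (0 to 4 higher, 2 to 3 lower), with 6 without DMSO replicate 1 and 6 without DMSO replicate 3. The 1 higher gene was 0 without a filter, with pseudocounts of 0.5 or 1 CPM and with the replicate block. The causes were not tested. With 3 libraries a group, an exact test cannot go below p = 0.1.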

Other observations

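The nearest tested genes on either side of each CCN gene, in RefSeq's order for GRCr8, were read as a description of the loci, a rule added after the data were seen. Beside Ccn1 on chromosome 2, Znhit6, a gene of small nucleolar RNP assembly, was at 25.6 ± 5.35 CPM with blebbistatin and 27.2 ± 2.68 CPM with DMSO (log2 fold change -0.10 ± 0.18). Its other neighbour, LOC102553018, had -0.034 ± 0.26. Beside Ccn2 on chromosome 1, Enpp1, an ectonucleotidase gene, had 0.019 ± 0.15 and Stx7, a syntaxin gene, -0.60 ± 0.43. Ccn3 and Ccn4 both lie on chromosome 7. Beside Ccn4, Ndrg1, a stress-responsive gene, had -0.17 ± 0.13 and Sla, an adaptor gene, -0.018 ± 0.22. Beside Ccn3, Mal2 and Enpp2 were both under 1 CPM on average in either group and had -0.60 ± 0.54 and -0.065 ± 0.40. Beside Ccn5 on chromosome 3, Ada had 0.11 ± 0.18 and Ywhab -0.072 ± 0.15. Limma called none of these genes. Not all of them are direct neighbours of their CCN gene. Other RefSeq genes lie between: 7 for Stx7, 3 each for Ada and Ywhab, 2 for Enpp2, and 1 each for Znhit6 and Mal2.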
